A study of Mus musculus with 18 samples.

Results

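The genes described here are 9 components of insulin and insulin-like growth factor (IGF) signalling: the ligands Igf1 and Igf2, the receptors Igf1r, Insr and Igf2r, the receptor-bound proteins Irs1, Irs2 and Grb10, and the PI3K regulatory subunit Pik3r1. They were chosen by name, with earlier results of these libraries known, from 27131 rows of expression values in mouse colon. Each of the 9 matched 1 row. A mean of at least 1 FPKM over the 18 libraries (fragments scaled by transcript length and library size) was reached by 8 of them, and Igf2 fell short of it.

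Polyadenylated RNA of whole colon tissue was sequenced from untreated C57BL/6 mice, with 9 libraries labelled wild type (WT, Hif2a +/+) and 9 labelled HIF2. HIF2 mice are described as having raised HIF2 in the colon, HIF2α being the oxygen-regulated transcription factor encoded by Epas1. Their allele is written LSL in the design text and LFL in the sample labels. Not given in the sources used here are the promoter or Cre that drives it, sex, age and which tissue was fresh or frozen. Libraries are not stated to come from separate mice, and p-values then measure only how these libraries spread.

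Insulin and the IGFs bind the receptor tyrosine kinases INSR and IGF1R, which phosphorylate the docking proteins IRS1 and IRS2. These recruit PI3K through its regulatory subunit, and the lipid PIP3 that PI3K makes activates AKT, which in turn acts on mTOR complexes, FOXO transcription factors and glucose handling. In the gut wall IGF1 is made mainly by mesenchymal and immune cells and acts on the epithelium as well as on smooth muscle.

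Columns summed to between 686539 and 937505 FPKM, and read depth is unknown. Over the 13976 genes tested with limma, 1531 were higher and 1557 lower in HIF2 at an adjusted p under 0.05, together 22.1% of genes, and the median difference was −0.02 on the log2 scale. The colon epithelial markers Epcam, Cdx2, Krt20, Car1 and Slc26a3 were above 0 in every library. Their list's mean log2(FPKM + 1), over 9 of 10 markers, was 9.27 to 9.61 in WT and 8.51 to 9.24 in HIF2. Libraries stood apart in RNA of the deeper gut wall. The mean of 13 of 13 smooth muscle markers was 6.20 to 7.23 in HIF2 replicates 0 to 5, against 2.43 to 3.57 in HIF2 replicates 6 to 8. It was 1.65 to 3.66 in WT, apart from 5.88 in WT replicate 3. Fibroblast markers, 12 of 12, were at 5.48 to 5.69 in HIF2 replicates 0 to 5, 3.17 to 3.96 in replicates 6 to 8 and 1.88 to 4.01 in WT. Macrophage markers, 7 of 7, were at 3.28 to 3.80, 2.28 to 3.14 and 0.98 to 2.76 in the same order. Among these lists, Lmod1 and Mfap5 were listed at 0 in at least 1 WT library. In whole tissue, more cells of a type and more RNA per cell cannot be told apart.

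Promoters are shown for Irs1, Irs2 and Igf2r because these, among the members with a RefSeq promoter entry, hold the palindrome CACGTG in the 250 bases before a transcription start. CACGTG contains ACGTG on both strands, and ACGTG and GCGTG are the core letters of hypoxia response elements, the motif bound by HIF proteins. Capitals mark CACGTG and either core, found on either strand and written as they read 5′ to 3′ on the gene's own strand, so a GCGTG on the opposite strand reads CACGC. The sequences are from RefSeq, build GRCm38.p6, at chr1:82291440-82291689, chr8:11008930-11009179 and chr17:12769707-12769956, all on the minus strand.
Irs1: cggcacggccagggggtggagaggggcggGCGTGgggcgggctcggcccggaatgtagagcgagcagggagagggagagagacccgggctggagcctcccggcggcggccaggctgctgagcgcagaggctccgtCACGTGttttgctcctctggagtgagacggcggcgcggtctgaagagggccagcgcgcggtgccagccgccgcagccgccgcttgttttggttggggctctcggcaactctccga
Irs2: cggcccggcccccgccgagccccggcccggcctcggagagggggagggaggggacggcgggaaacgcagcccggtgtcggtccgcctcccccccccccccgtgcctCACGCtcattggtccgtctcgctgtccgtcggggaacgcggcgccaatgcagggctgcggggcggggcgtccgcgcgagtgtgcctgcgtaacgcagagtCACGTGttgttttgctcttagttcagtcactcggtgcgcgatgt
Igf2r: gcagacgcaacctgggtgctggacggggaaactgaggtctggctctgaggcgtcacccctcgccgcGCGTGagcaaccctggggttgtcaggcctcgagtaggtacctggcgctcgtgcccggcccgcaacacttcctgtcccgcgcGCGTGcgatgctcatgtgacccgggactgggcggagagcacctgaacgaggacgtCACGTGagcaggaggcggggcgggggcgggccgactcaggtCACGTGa

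CACGTG lay 115 to 110 bases before the start in Irs1 and 44 to 39 bases before it in Irs2. Igf2r held it at 48 to 43 and again at 7 to 2 bases. A GCGTG was also present in each, at 221 to 217 bases in Irs1, at 144 to 140 on the opposite strand in Irs2, and at 184 to 180 and 103 to 99 in Igf2r. Over 32851 promoter windows of this length, 6.02% held CACGTG, 28.16% held GCGTG and 2.36% held both. Of the members, 8 had entries, with 13 windows between them, and 8 of those windows held ACGTG or GCGTG, against 38.6% of all windows. The letters GTAAACA, a FOXO core, were in 0 of the 13 windows and in 3.17% of all. These matches describe letters, and the RNA levels of the genes that hold them differed: Irs1 was far higher in HIF2, Irs2 moderately so, and Igf2r overlapped WT.

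**Figure D1:**
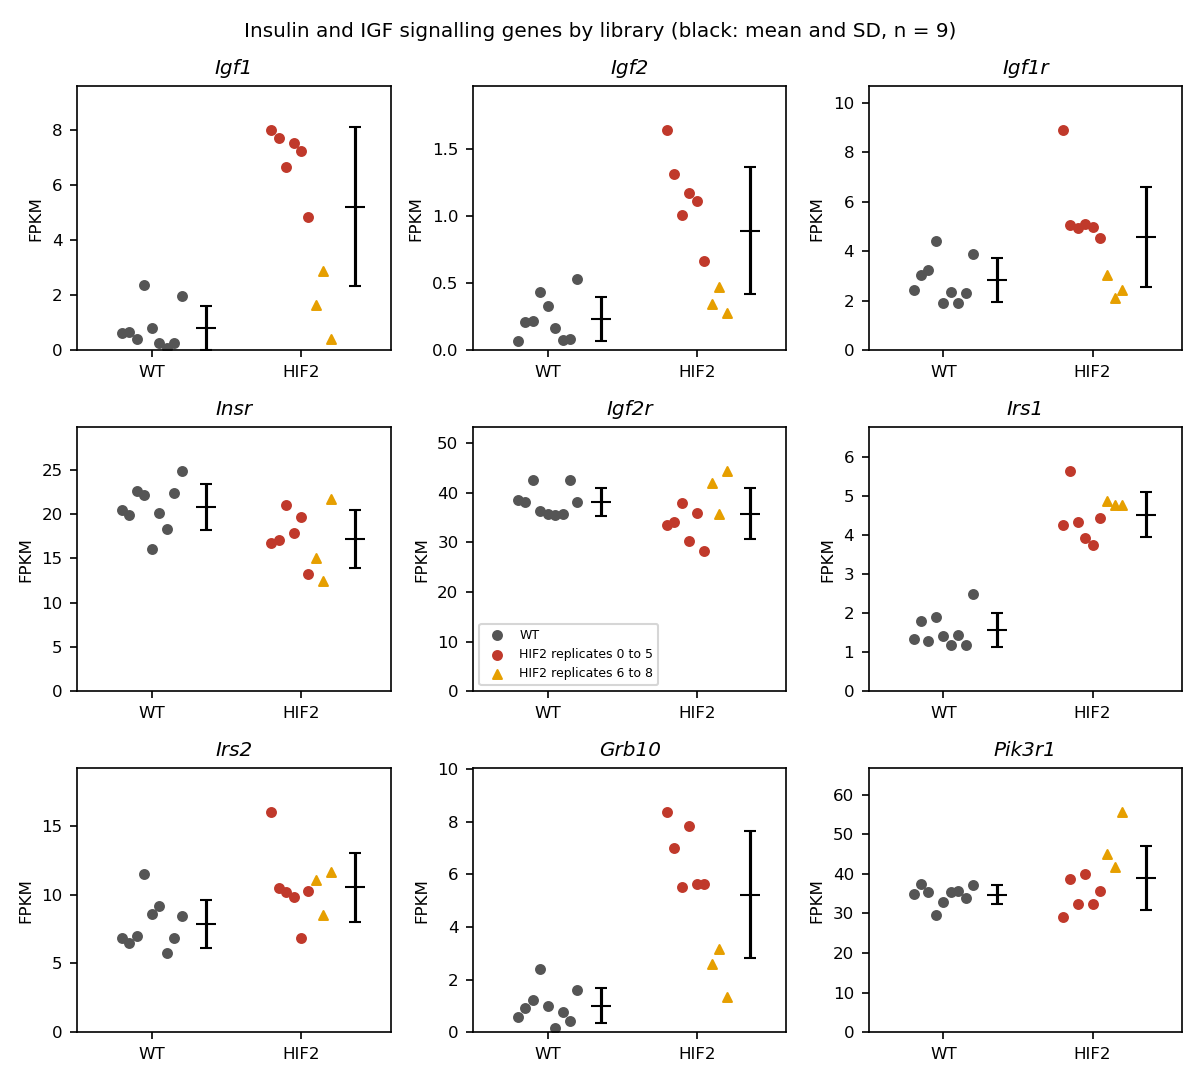
Level of each of the 9 genes in every library, in FPKM, with WT and HIF2 libraries side by side. Irs1 is the gene whose groups are fully apart, with WT at 1.18 to 2.51 FPKM and HIF2 at 3.74 to 5.65 FPKM.

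Among the ligands, Igf1 encodes the growth factor that signals through IGF1R. It lies at chr10:87858265-87937042 on the plus strand (GENCODE M21, mm10). Its level in WT was lowest at 0.0881, with a median of 0.644 and a highest value of 2.38 FPKM, and in HIF2 it was 0.425, 6.68 and 8.0 FPKM in the same order. The highest WT value was that of replicate 3, the WT library with high smooth muscle RNA. HIF2 replicates 0 to 5 had 4.84 to 8.0 FPKM, whereas replicates 6 to 8 had 0.425 to 2.90 FPKM. Thus 7 of 9 HIF2 libraries lay above every WT library, and the groups overlapped. The mean was 0.830 ± 0.799 FPKM in WT and 5.22 ± 2.89 FPKM in HIF2 (SD, n = 9 each), a difference of 1.65 ± 0.34 (SE) on the log2(FPKM + 1) scale, which understates changes of low genes. Since members were chosen with this contrast known, their differences are given as descriptions, with no test.

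Igf2 encodes the second IGF, an imprinted gene expressed strongly before birth, at chr7:142650766-142666816 on the minus strand. It was scarce in all libraries. In WT it had 0.0677, 0.211 and 0.530 FPKM (lowest, median, highest) and in HIF2 0.275, 1.01 and 1.64 FPKM. The split within HIF2 was that of Igf1, with 0.668 to 1.64 FPKM in replicates 0 to 5 and 0.275 to 0.472 FPKM in replicates 6 to 8, the latter all inside the WT range. In a fit with no filter on low values the difference was 0.58 ± 0.13 (SE). Igf2 shares 3596 exon bases with Gm49394 on the same strand, so reads of these models cannot be told apart. Igf1 exceeded Igf2 in every library, by a ratio of 1.13 to 9.50 in WT and 1.54 to 7.25 in HIF2.

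Of the receptors, Igf1r, which binds both IGFs, lies at chr7:67952827-68233668 on the plus strand. It had 1.90, 2.46 and 4.40 FPKM in WT and 2.12, 4.94 and 8.90 FPKM in HIF2 (lowest, median, highest). All 6 HIF2 values above the WT range came from replicates 0 to 5, at 4.55 to 8.90 FPKM, while replicates 6 to 8, at 2.12 to 3.04 FPKM, lay inside it. The top value was that of replicate 0, which also stood apart with a neutrophil marker mean of 7.64 on the log2 scale, over 3 of 7 markers. The means were 2.84 ± 0.88 and 4.57 ± 2.02 FPKM (SD, n = 9 each), a difference of 0.49 ± 0.19 (SE), and of 0.38 ± 0.17 without that library.

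Insr, the insulin receptor, lies at chr8:3122061-3279617 on the minus strand. In WT it had 16.1, 20.5 and 24.8 FPKM, and in HIF2 12.4, 17 and 21.7 FPKM (lowest, median, highest). It was the member with the largest deficit in HIF2, but 6 of 9 HIF2 libraries lay inside the WT range. The difference was −0.27 ± 0.11 (SE). HIF2 replicates 0 to 5 alone gave −0.23 ± 0.10, and replicates 6 to 8 against WT without replicate 3 gave −0.34 ± 0.16. The difference was thus negative in both sets, but each held a library above the WT median. These were HIF2 replicate 2, at 21.0 FPKM, and HIF2 replicate 8, at 21.7 FPKM.

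Igf2r, which removes IGF2 from the cell surface and carries lysosomal enzymes, lies at chr17:12682406-12769664 on the minus strand. Its level was 35.5, 38.1 and 42.6 FPKM in WT and 28.2, 35.7 and 44.3 FPKM in HIF2. The HIF2 libraries spread to both sides of WT, with 4 below every WT library and 1 above. The difference was −0.10 ± 0.08 (SE), and −0.06 without HIF2 replicate 5. Its sign differed between −0.19 ± 0.07 with HIF2 replicates 0 to 5 and 0.08 ± 0.09 with replicates 6 to 8. Airn, an antisense transcript over the Igf2r gene with which it shares 0 exon bases in this annotation, overlapped between groups in its Ensembl-named row, at 4.63 to 23.5 FPKM in WT and 6.63 to 21.6 FPKM in HIF2.

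The receptor docking protein gene Irs1 separated the genotypes in every library. It lies at chr1:82233101-82291416 on the minus strand, and its promoter is the first printed above. WT libraries had 1.18 (lowest), 1.42 (median) and 2.51 FPKM (highest), and HIF2 libraries had 3.74, 4.45 and 5.65 FPKM. Every HIF2 library was above every WT library. Over all genes tested, such a lack of overlap with HIF2 higher was seen in 106, which is 0.758%. The mean was 1.57 ± 0.436 FPKM in WT and 4.53 ± 0.570 FPKM in HIF2 (SD, n = 9 each), a ratio of 2.90 and a difference of 1.12 ± 0.10 (SE).

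Irs1 did not divide the HIF2 libraries as Igf1 did. Replicates 6, 7 and 8, whose smooth muscle markers were within the range of the WT libraries other than replicate 3, had 4.88, 4.78 and 4.78 FPKM, inside the 3.74 to 5.65 FPKM of replicates 0 to 5. In WT, Irs1 was highest in replicate 8, at 2.51 FPKM, and next in replicate 3, at 1.92 FPKM. The same libraries had the highest WT smooth muscle means, 3.66 and 5.88, and fibroblast means, 3.65 and 4.01. Whether Irs1 moves with these markers within WT was not tested. Leaving out each library in turn moved the difference between 1.09 (without HIF2 replicate 1) and 1.18 (without WT replicate 8). Some marker lists also kept the groups apart. The enteric neuron and glia mean, over 2 of 7 markers, was 0.18 to 1.23 in WT and 1.44 to 3.71 in HIF2. The colon epithelial mean was 9.27 to 9.61 in WT and 8.51 to 9.24 in HIF2. Neither was fitted as a covariate, and their part in the Irs1 difference was not tested. An antisense model, Gm9747, shares 2822 exon bases with Irs1, and without strand marks in the library kit the reads of both cannot be told apart.

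Irs2, the other main docking protein and the principal one for insulin in liver, lies at chr8:10984681-11008458 on the minus strand. It had 5.73, 7.0 and 11.5 FPKM in WT and 6.84, 10.2 and 16.0 FPKM in HIF2 (lowest, median, highest). The groups overlapped widely: 8 of 9 HIF2 libraries were above the WT median, but only 2 were above every WT library. Means were 7.85 ± 1.76 and 10.5 ± 2.49 FPKM (SD, n = 9 each), a difference of 0.38 ± 0.13 (SE), falling to 0.30 ± 0.12 without HIF2 replicate 0. The highest WT value was that of replicate 3. Irs2 shares 162 exon bases with the antisense transcript 9530052E02Rik.

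Grb10 encodes an imprinted adaptor that binds the insulin and IGF1 receptors and restrains their signalling. It lies at chr11:11930508-12038683 on the minus strand. It had 0.182, 0.915 and 2.39 FPKM in WT and 1.33, 5.61 and 8.36 FPKM in HIF2. HIF2 replicates 0 to 5, at 5.52 to 8.36 FPKM, were all above WT, and replicates 6 to 8 had 1.33 to 3.15 FPKM, of which 1 lay inside the WT range. As for Igf1, WT replicate 3 was the highest WT library. The means were 1.02 ± 0.671 and 5.22 ± 2.41 FPKM (SD, n = 9 each), a difference of 1.57 ± 0.26 (SE).

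Pik3r1 encodes p85α, the regulatory subunit that brings PI3K to phosphorylated IRS proteins, at chr13:101680563-101768217 on the minus strand. It had 29.6, 35.4 and 37.3 FPKM in WT and 29.1, 38.7 and 55.6 FPKM in HIF2. Its split within HIF2 ran opposite to that of Igf1 and Grb10: replicates 6 to 8 were the high ones, at 41.9 to 55.6 FPKM, against 29.1 to 40.0 FPKM in replicates 0 to 5. The difference was 0.14 ± 0.10 (SE) over all libraries and 0.08 without HIF2 replicate 8. It was 0.41 ± 0.08 for replicates 6 to 8 against WT without replicate 3, and close to 0, at 0.00 ± 0.08, for replicates 0 to 5 against all WT. Of the 8 members that passed the filter, 4 were past the threshold, all higher in HIF2 (Irs1, Igf1, Grb10 and Irs2). Of all genes, 22.1% were called and 11.0% were higher. Igf1, with a WT mean of 0.830 FPKM, passed the filter through HIF2, where it was high. Of the 7 members with a mean of at least 1 FPKM in both groups, 3 were called. Of all such genes, 19.6% were called and 7.97% were higher. The choice of members used this contrast and nothing is read from these counts.

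**Figure D2:**
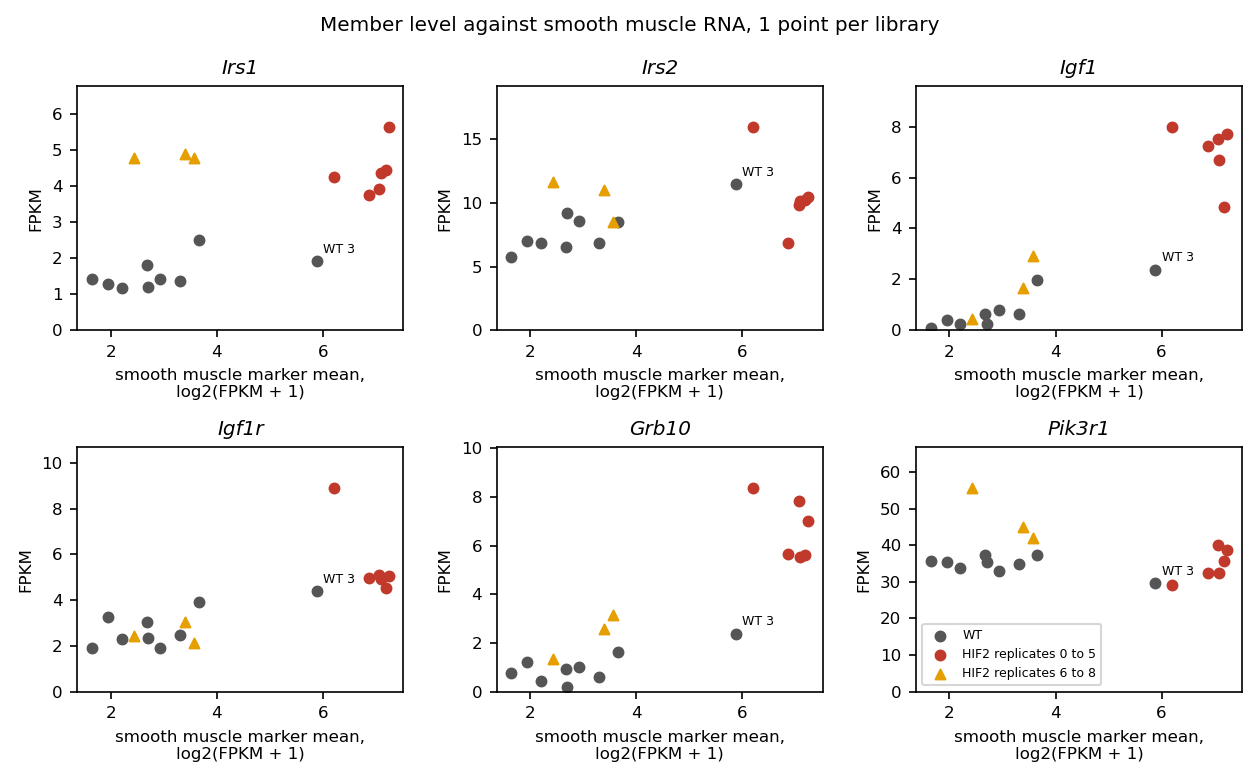
Level of Irs1, Irs2, Igf1, Igf1r, Grb10 and Pik3r1 in FPKM against the mean log2(FPKM + 1) of 13 smooth muscle markers, 1 point per library. Igf1 and Grb10 are high in the 6 HIF2 libraries at the right, from 6.20 to 7.23 on the marker axis, whereas Irs1 is as high in the 3 HIF2 libraries at 2.43 to 3.57.

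The members therefore fell into different relations with stromal RNA. With the smooth muscle mean as covariate, Irs1 differed by 1.09 ± 0.13 (SE), against 1.12 ± 0.10 without it. For Igf1 it was 0.50 ± 0.20 in place of 1.65 ± 0.34, for Grb10 0.79 ± 0.20 in place of 1.57 ± 0.26, and for Igf1r −0.03 ± 0.18 in place of 0.49 ± 0.19. Insr kept a difference of −0.33 ± 0.14, and Pik3r1 moved to 0.39 ± 0.10. With the fibroblast mean, a covariate chosen after seeing the data, Igf1 was at −0.18 ± 0.20, Igf1r at −0.36 ± 0.20 and Grb10 at 0.24 ± 0.18, while Irs1 was at 0.99 ± 0.16. With the macrophage mean, also chosen after seeing the data, Irs1 was at 0.82 ± 0.19 and Igf1 at −0.34 ± 0.46. The macrophage mean itself was above every WT library in 8 of 9 HIF2 libraries. Of all genes, 14.1% were called with the smooth muscle covariate, 11.0% with the fibroblast covariate and 0.343% with the macrophage covariate, and of the 8 members 3, 2 and 0.

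In the 3 HIF2 libraries with low smooth muscle RNA, set against the 8 WT libraries other than replicate 3, the differences were 1.22 ± 0.15 (SE) for Irs1, 0.44 ± 0.14 for Irs2, 0.86 ± 0.25 for Grb10, 0.65 ± 0.33 for Igf1 and −0.03 ± 0.17 for Igf1r. Irs1 was thus as far above WT there as in the other HIF2 libraries, which gave 1.08 ± 0.12. Low smooth muscle RNA did not make these 3 libraries like the 8 WT libraries in other marker lists. Median marker means were 3.74 against 2.48 for fibroblast, 3.12 against 1.68 for macrophage and 8.78 against 9.50 for colon epithelium. For lymphocyte they were close, at 1.16 against 1.18. Over all genes, 19.1% were called with these 3 libraries and 25.6% with the other 6 against all WT. Y-linked transcripts were near 0 in these 3 libraries and also in HIF2 replicate 3 and WT replicates 5 to 8. HIF2 replicate 3, itself among replicates 0 to 5, had high smooth muscle RNA, 7.52 FPKM of Igf1 and 7.82 FPKM of Grb10. Within HIF2, the Y-linked and smooth muscle splits differed in this library only, and their parts in the member levels were not tested. With the mean of Y-linked markers as a covariate, Igf1 was at 1.65 ± 0.30 and Irs1 at 1.12 ± 0.10.

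**Figure D3:**
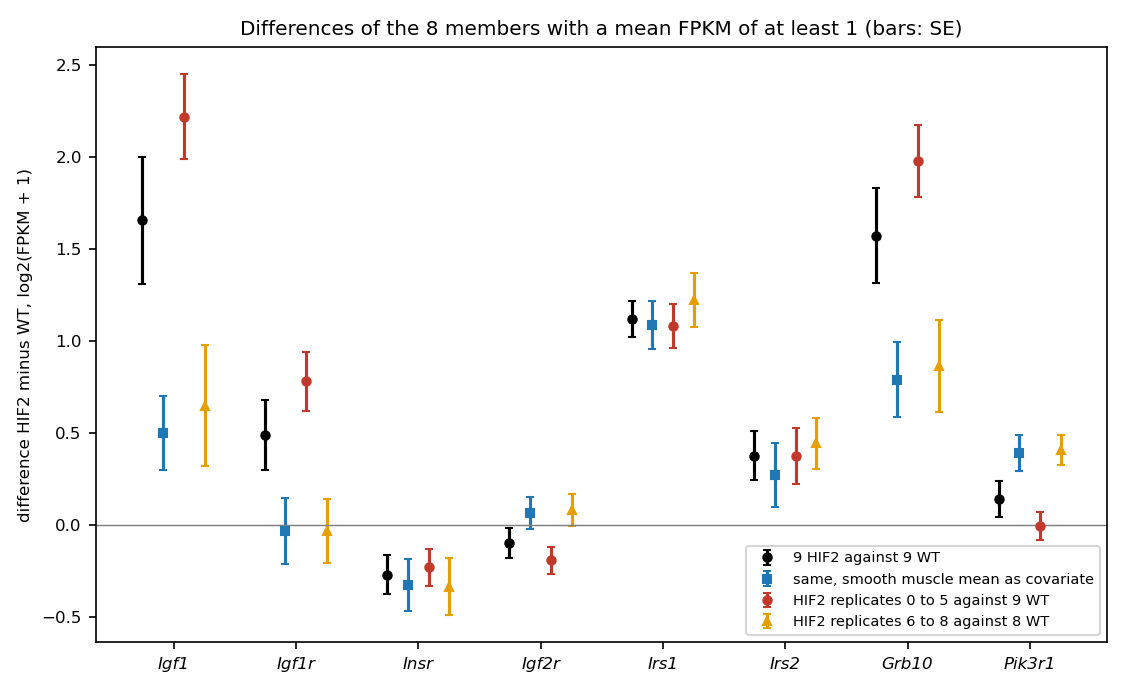
Difference HIF2 minus WT of the 8 members that passed the filter, as log2(FPKM + 1) with SE, over all libraries, with a smooth muscle covariate and for each set of HIF2 libraries. Irs1 stays between 1.08 and 1.22 in all 4 settings, while Igf1 ranges from 0.50 to 2.22.

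In WT the order of levels by median, on the FPKM scale, was Igf2r, Pik3r1, Insr, Irs2, Igf1r, Irs1, Grb10, Igf1 and Igf2. Ranges of neighbours were apart between Pik3r1 and Insr, between Insr and Irs2 and between Irs2 and Igf1r, and overlapped elsewhere. In HIF2 the order was Pik3r1, Igf2r, Insr, Irs2, Igf1, Grb10, Igf1r, Irs1 and Igf2, with neighbours apart between Igf2r and Insr and between Irs1 and Igf2. Igf2r, Pik3r1 and Insr had the highest medians in both groups, and Igf1 and Grb10 stood above Igf1r and Irs1 in HIF2 but below them in WT.

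Ratios within a library remove differences in total scaling. Irs2 exceeded Irs1 by a ratio of 3.38 to 7.71 in WT (median 5.44) and 1.78 to 3.76 in HIF2 (median 2.30), with little overlap. In HIF2 replicates 6 to 8 that ratio was 1.78 to 2.43, inside the range of replicates 0 to 5, 1.83 to 3.76, at all but its lowest value. Insr exceeded Igf1r by 5.02 to 9.63 in WT (median 8.33). This ratio was 1.88 to 4.24 in HIF2 replicates 0 to 5, below all WT libraries, but 4.93 to 8.95 in replicates 6 to 8. Within HIF2, the receptor ratio thus followed the smooth muscle split, and the docking protein ratio did not. The lowest receptor ratio of replicates 6 to 8 was still below that of every WT library.

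**Figure D4:**
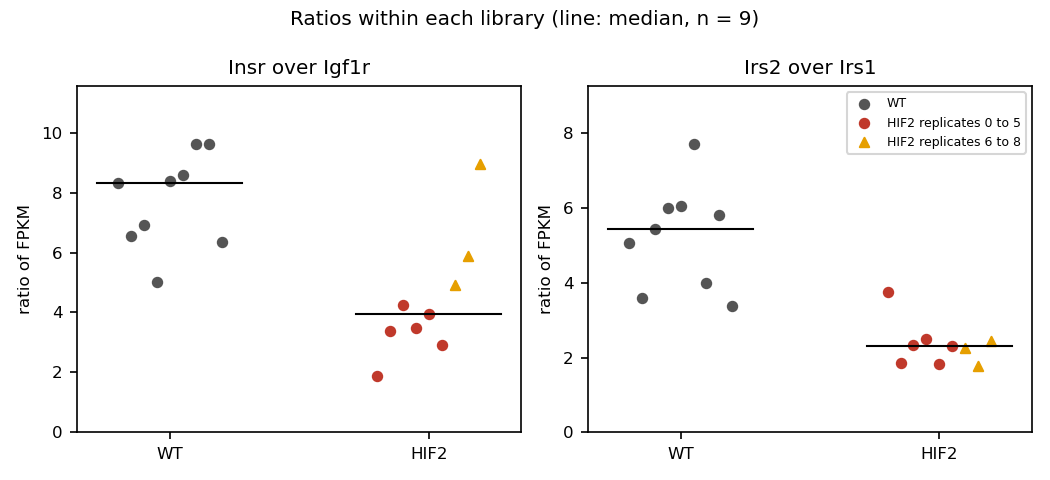
Ratio of Insr to Igf1r and of Irs2 to Irs1 in FPKM, 1 point per library. The Irs2 to Irs1 ratio is lower in HIF2, at 1.78 to 3.76, than in most WT libraries, at 3.38 to 7.71.

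The other genes of the pathway moved in both directions. Of 79 such genes, listed by role, 70 were tested, 5 rose and 12 fell in HIF2, and their median difference was −0.12 on the log2 scale against −0.02 over all genes. The called share was 24.3%, with 7.14% higher and 17.1% lower, beside 22.1%, 11.0% and 11.1% of all genes. Over genes with a mean of at least 1 FPKM in both groups, it was 16 of 67, or 23.9%, beside 19.6%. These shares are near the background. Without HIF2 replicate 8, 8 pathway genes rose.

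**Figure D5:**
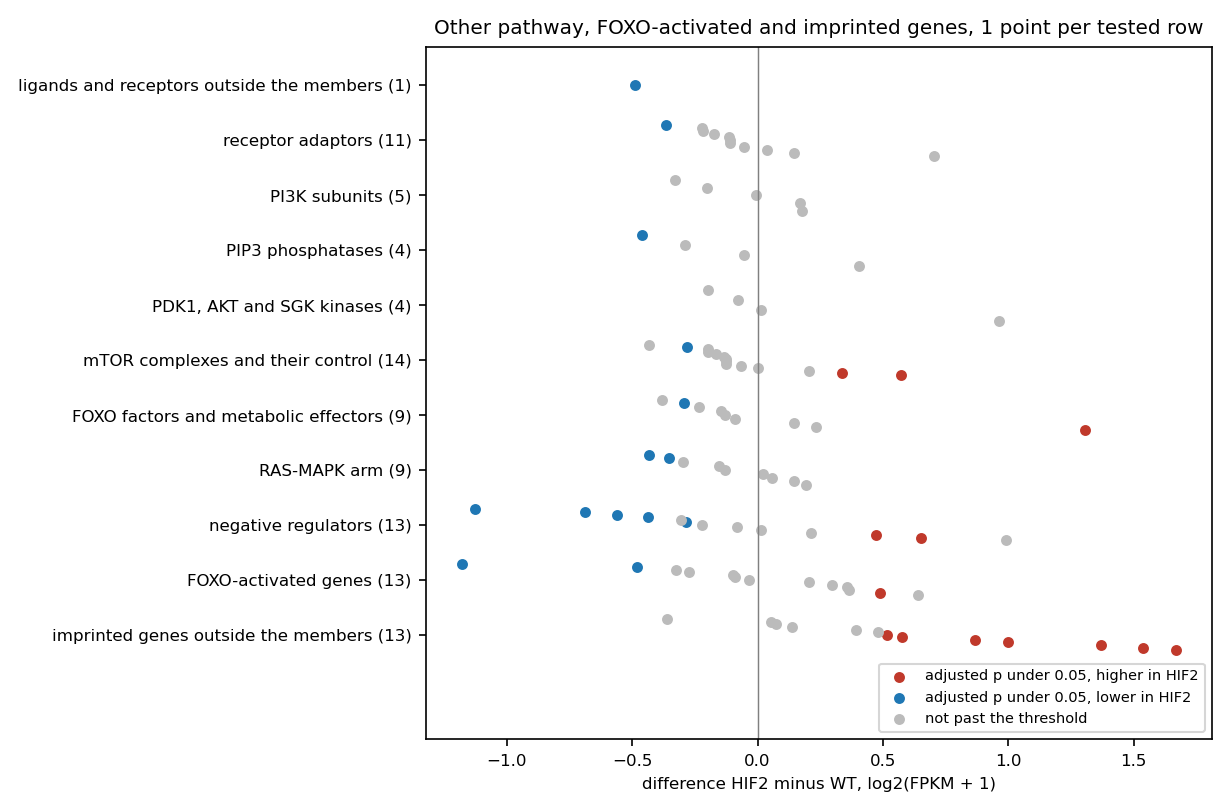
Difference HIF2 minus WT, in log2(FPKM + 1), of the other pathway genes by role and of the FOXO-activated and imprinted lists, 1 point per tested row, with those past the threshold in colour. Among pathway genes Phlpp2, at −1.13, is the point farthest below 0 and Slc2a4, at 1.31, the one farthest above it.

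Upstream of PI3K, Ins1 was listed at 0 in all 18 libraries. Ins2 had a median of 0 and a highest value of 0.946 FPKM in WT, and was 0 in every HIF2 library. Pancreas markers were high in some WT libraries. Their mean log2(FPKM + 1), over 6 of 8 markers, was 6.65 in WT replicate 2 and 3.48 in WT replicate 8, against 0.14 to 0.46 in HIF2. Insrr, an orphan receptor of the insulin receptor family, fell from 1.66 ± 0.532 to 0.886 ± 0.279 FPKM (SD, n = 9 each; difference −0.49 ± 0.14 (SE), limma adjusted p = 0.0147). It passed the filter through WT, and its limma adjusted p was 0.104 with the smooth muscle covariate and 0.125 with HIF2 replicates 6 to 8. Among 11 tested adaptors, 0 rose and 1 fell: Sh2b1, an adaptor of receptor and JAK kinases, went from 6.62 ± 1.12 to 4.91 ± 0.758 FPKM (−0.36 ± 0.10, limma adjusted p = 0.0097), with a limma adjusted p of 0.0525 for HIF2 replicates 0 to 5. None of the 5 other PI3K subunits passed the test, with 0 at an unadjusted p under 0.05 in limma, the tool run here.

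At the level of PIP3, Inppl1, which encodes the 5-phosphatase SHIP2, was the only 1 of 4 tested phosphatases to pass, and fell from 22.3 ± 2.48 to 15.9 ± 2.09 FPKM (−0.46 ± 0.08, limma adjusted p = 0.000775). Against the HIF2 libraries with low smooth muscle RNA alone, its difference was −0.33 with a limma adjusted p of 0.0602.

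None of 4 tested kinases below PIP3 passed, with 2 at an unadjusted p under 0.05 in limma. Akt1 and Akt2, genes of the kinase AKT, and Pdpk1, which encodes the kinase PDK1 that activates it, had differences of −0.20, 0.01 and −0.08 and limma adjusted p of 0.0927, 0.926 and 0.489. Without HIF2 replicate 0, Akt1 was at −0.24 with a limma adjusted p of 0.0264. Sgk1 encodes a kinase related to AKT, and its difference was 0.96 ± 0.34 (SE, limma adjusted p = 0.0507).

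In the mTOR branch, 2 of 14 tested genes rose and 1 fell. Rictor, the defining subunit of mTOR complex 2, rose from 11.7 ± 0.702 to 15.2 ± 2.95 FPKM (SD, n = 9 each; 0.34 ± 0.10 (SE), limma adjusted p = 0.0169), with replicates 6 to 8 at 16.7 to 18.7 FPKM, but in replicates 0 to 5 against all WT the difference was 0.22 and the limma adjusted p 0.104. Eif4ebp1, the translation repressor that mTOR complex 1 phosphorylates, rose from 12.3 ± 1.81 to 20.2 ± 10.9 FPKM (0.57 ± 0.18, limma adjusted p = 0.0277). Its highest library, HIF2 replicate 0, had 48.8 FPKM, and the call was lost without WT replicate 0 (limma adjusted p = 0.053) or 1 (0.052). Rps6kb2, an S6 kinase, fell by 0.28 (limma adjusted p = 0.0322), and leaving out any of 6 single libraries took it past the threshold, to between 0.0501 and 0.0563. Those libraries were WT replicates 3, 4 and 7 and HIF2 replicates 0, 1 and 3. Mtor itself had a difference of −0.20 (limma adjusted p = 0.134).

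Of the FOXO factors and metabolic effectors, Foxo1 did not pass (0.23, limma adjusted p = 0.189). Foxo3 fell from 23.7 ± 3.98 to 19 ± 2.47 FPKM (SD, n = 9 each; −0.30 ± 0.10 (SE), limma adjusted p = 0.0424), a call lost without any of 10 single libraries, with a limma adjusted p of up to 0.0819. Those were WT replicates 1, 2, 3, 5 and 8 and HIF2 replicates 0, 1, 2, 3 and 7. The Foxo3 call was also lost with TPM, quantile and median of ratios scaling, at limma adjusted p of 0.0681, 0.0681 and 0.0604, and in HIF2 replicates 6 to 8, at −0.14 and 0.534. Slc2a4, which encodes the insulin-responsive glucose transporter GLUT4 of muscle and fat, rose from 1.30 ± 1.53 to 5.11 ± 3.50 FPKM (1.31 ± 0.39, limma adjusted p = 0.0224). It was at 5.21 FPKM in WT replicate 3, 4.57 to 11.0 FPKM in HIF2 replicates 0 to 5 and 0.459 to 1.80 FPKM in replicates 6 to 8. Its difference with the smooth muscle covariate was −0.08. The adipocyte marker mean, over 6 of 7 markers, overlapped between groups, at 1.11 to 3.39 in WT and 0.99 to 3.26 in HIF2, with Adipoq, Plin1, Lep and Retn at 0 in at least 1 library of each group.

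In the RAS-MAPK arm 0 of 9 rose and 2 fell. Mapk3, the kinase ERK1, fell from 88.7 ± 11.4 to 65.3 ± 7.38 FPKM (SD, n = 9 each; −0.43 ± 0.09 (SE), limma adjusted p = 0.00152), and Map2k1, its activating kinase MEK1, from 128 ± 18.3 to 99.9 ± 14.9 FPKM (−0.35 ± 0.11, limma adjusted p = 0.0239). Neither passed when HIF2 replicates 6 to 8 were set against WT without replicate 3, with limma adjusted p of 0.155 and 0.0538.

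Among 13 tested negative regulators 2 rose and 5 fell, 53.8% called beside 22.1% of all genes, 15.4% higher beside 11.0% and 38.5% lower beside 11.1%. Whether roles differ in this share was not tested. Phlpp2, a phosphatase that removes an activating phosphate from AKT, fell from 18.8 ± 4.92 to 8.18 ± 2.39 FPKM (SD, n = 9 each; −1.13 ± 0.19 (SE), limma adjusted p = 0.000452). Its lowest WT library had 11.8 FPKM and its highest HIF2 library 10.9 FPKM, so the groups did not overlap, as held with HIF2 lower for 1.27% of all genes. Ptprf, a receptor phosphatase, and Socs2, a suppressor of cytokine and growth hormone signalling, fell by 0.44 and 0.56 (limma adjusted p = 0.0132 and 0.0187). The Ptprf call was lost with either set of HIF2 libraries (0.0508 with replicates 0 to 5 and 0.0642 with replicates 6 to 8, limma adjusted p), and the Socs2 call with replicates 0 to 5 (0.0616). The other genes of this role that fell were Socs1 and Phlpp1, by 0.69 and 0.29. The ubiquitin ligase gene Cblb rose from 4.73 ± 0.965 to 6.95 ± 1.25 FPKM (0.47 ± 0.11, limma adjusted p = 0.00533). Trib2, a pseudokinase gene that binds AKT, rose from 1.15 ± 0.349 to 2.57 ± 1.49 FPKM (0.65 ± 0.20, limma adjusted p = 0.0245). Its HIF2 replicates 6 to 8 were inside the WT range, at 1.08 to 1.35 FPKM, and its call was lost without HIF2 replicate 1 (limma adjusted p = 0.051). Socs3 did not pass over all libraries (0.99 ± 0.47, limma adjusted p = 0.144), with 77.7 FPKM in HIF2 replicate 0. Without that library its difference was 0.62. In HIF2 replicates 6 to 8, at 10.5 to 11.3 FPKM, against WT without replicate 3, it did (1.42, limma adjusted p = 0.00392).

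Among 13 tested genes that FOXO factors are known to activate, 1 rose and 2 fell, 23.1% beside 22.1% of all genes, with a median of −0.03. Pck1, the gluconeogenic enzyme PEPCK that insulin represses in liver, fell from 77.5 ± 14.0 to 35.6 ± 12.4 FPKM (SD, n = 9 each; −1.18 ± 0.21 (SE), limma adjusted p = 0.000702). Gadd45a, a stress and growth arrest gene, fell by 0.48 (limma adjusted p = 0.00822). Sesn3, which encodes a sestrin that restrains mTOR complex 1, rose by 0.49 (limma adjusted p = 0.0378), and 10 single libraries each ended that call when left out, with a limma adjusted p of up to 0.0748: WT replicates 0, 4, 6 and 7 and HIF2 replicates 1, 2, 3, 5, 6 and 8.

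Several of the calls of single genes moved with smooth muscle RNA, whose part in them was not tested. With that covariate, Eif4ebp1, Rps6kb2, Foxo3, Map2k1, Trib2, Gadd45a and Sesn3 did not pass, at limma adjusted p of 0.117, 0.274, 0.232, 0.337, 0.532, 0.12 and 0.185. Mtor did pass with it, at −0.35 (limma adjusted p = 0.0376). With only HIF2 replicates 6 to 8, set against WT other than replicate 3, Rps6kb2, Slc2a4, Trib2 and Sesn3 did not pass, at 0.591, 0.638, 0.776 and 0.226 (limma adjusted p). Eif4ebp1 missed the threshold in replicates 0 to 5 (0.0506) and with TPM scaling (0.0646), and Trib2 with quantile normalization (0.0582), all limma adjusted p. Phlpp2, Cblb and Pck1 passed with the smooth muscle covariate and in both sets of HIF2 libraries. With the macrophage covariate, where 0.343% of all genes were called, they did not pass, at limma adjusted p of 0.121, 0.342 and 0.197. Pck1 also missed the threshold with the fibroblast covariate (limma adjusted p = 0.0586).

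Igf2, Igf2r and Grb10 are imprinted, and of 13 tested rows of other imprinted genes 7 rose and 0 fell. That is 53.8% beside the 11.0% of all genes that were higher, but many were scarce: of the 8 rows with a mean of at least 1 FPKM in both groups 2 rose, 25.0% beside 7.97%. The 7 became 3 with the smooth muscle covariate and 0 with the fibroblast covariate, so these calls moved with stromal RNA, whose part in them was not tested. H19, the noncoding RNA next to Igf2, was 0 to 1.66 FPKM in WT, highest in replicate 3, and 0.721 to 4.70 FPKM in HIF2. It rose by 1.54 ± 0.24 (SE, limma adjusted p = 0.000286). H19, Peg3 and Sgce had WT means under 1 FPKM and passed the filter through HIF2, where they were high, so none is among those 8 rows. The highest HIF2 library for H19 was among replicates 6 to 8, unlike that for Igf2. Peg3, a zinc finger gene expressed from the paternal allele, rose from 0.941 ± 0.355 to 2.91 ± 0.810 FPKM (SD, n = 9 each; 1.0 ± 0.14 (SE), limma adjusted p = 0.000142). Sgce, which encodes a sarcoglycan, rose from 0.854 ± 0.819 to 4.01 ± 2.38 FPKM (1.37 ± 0.30, limma adjusted p = 0.00341). In HIF2 replicates 6 to 8 it was at 1.1 to 1.61 FPKM. That lay inside the WT range through WT replicate 3, at 2.71 FPKM, the other WT libraries reaching 1.55 FPKM. Against WT without replicate 3, these libraries gave a difference of 0.57 (limma adjusted p = 0.124). With the smooth muscle covariate the limma adjusted p of Sgce was 0.215.

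To describe which genes varied with each member apart from genotype, the group mean was removed and Pearson correlations were taken over the 18 libraries, without a p-value. These libraries share the smooth muscle split, so high values recur among genes that follow it. For Igf1 the closest genes were Ltbp1 (0.964), Tmem47 (0.958) and Ddr2 (0.956), and for Grb10 they were Fstl1 (0.939), Antxr1 (0.938) and Htra1 (0.937). Ltbp1 encodes a matrix protein that binds latent TGFβ, and Ddr2 a collagen receptor. Igf2 was closest to Cep170 (0.955), Qk (0.942) and Pip4k2a (0.933), and Igf1r to Notch2 (0.959), Nisch (0.957) and Itpkb (0.954).

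Insr, Igf2r and Pik3r1 had other neighbours. Insr was closest to Lrp6 (0.873), a WNT co-receptor, Smg1 (0.868) and Herc2 (0.861), Igf2r to Ankhd1 (0.888), Marveld2 (0.867), a tight junction gene, and Copa (0.835), and Pik3r1 to Mtus1 (0.918), Myo5c (0.901) and Hsd17b11 (0.899). Irs1 had weaker ones, Agbl5 (0.821), Wdr25 (0.754) and Scmh1 (0.726), which fell to 0.622, 0.517 and 0.479 without the 2 libraries farthest from the median. Irs2 was closest to Smpd4 (0.801), Leng8 (0.794) and Eid3 (0.788), at 0.575, 0.596 and 0.653 without such libraries. Between members, the correlation was 0.929 for Igf1 with Grb10, 0.909 for Igf1 with Igf2, 0.804 for Igf1 with Igf1r and −0.774 for Igf1 with Pik3r1. For Irs1 it was 0.188 with Igf1 and 0.288 with Irs2. The value with Igf1 joined 0.816 within WT and −0.349 within HIF2. Within WT, Irs1 also had 0.798 with Igf2, 0.736 with Grb10 and 0.703 with Igf1r. Within HIF2 these were −0.303, −0.332 and −0.369.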

How the data were processed

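The deposited values are FPKM from the authors, 1 column per library, 9 WT and 9 HIF2. They were made with Cuffdiff 2.1.1, Cufflinks, TopHat, TopHat2 2.0.9, Bowtie2 2.1.0.0 and FastQC on mm10, per the submitters' processing notes, which assign no role to any tool. The labels' protocols give TruSeq RNA v2 as the library kit, which does not mark strand. Depth is unknown, so no counting interval is given.

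Each value was used as log2(FPKM + 1). Genes with a mean of at least 1 FPKM were fitted with limma 3.58.1 in R 4.3.3 (trended prior, 2-sided), with Benjamini-Hochberg adjustment at 0.05 over all 13976 genes. The procedure was tested on simulated data. The members and lists were chosen with earlier results of these data known. Named were the members, 10 fixed genes, up to 3 genes per direction with the smallest p from each role or list, and the 3 genes most like each member. Genes named beyond that rule, Socs1, Phlpp1 and Sgk1, were chosen after their values were seen. Symbols were matched directly, or through RefSeq synonyms (Hras1, Emr1). A list gene with several rows was counted by row. Some listed genes are not reported here. Gene positions are from GENCODE M21, build mm10, and promoters from RefSeq, build GRCm38.p6. Alternatives, 34 in all, varied the pseudocount, filter, scaling, weights, prior, replicate block, covariates and libraries. Groups were set by the labels, and the division of HIF2 into replicates 0 to 5 and 6 to 8 follows smooth muscle markers.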

Additional observations from a re-analysis of the deposited data

Results flagged for a closer look

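In 6 of 72 groups of 9 libraries checked, 1 library lay far from the rest on the log2(FPKM + 1) scale. Its gap to the nearest other library, divided by the group's range on that scale, was above Dixon's 95% critical value. Chance flags about 1 in 20 groups. HIF2 replicate 0, the library with high neutrophil markers, was the one in 4 of them: highest for Eif4ebp1 (48.8 FPKM, ratio 0.739) and Socs3 (77.7 FPKM, ratio 0.552), and lowest for Map2k1 (64.7 FPKM, ratio 0.57) and Phlpp2 (3.09 FPKM, ratio 0.509). WT replicate 3, the WT library with high smooth muscle markers, was highest for Slc2a4 (5.21 FPKM, ratio 0.572) and H19 (1.66 FPKM, ratio 0.597). No member was among them.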

How the results depend on the processing

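Signs of the 8 fitted members were as reported under each pseudocount, filter, scaling, prior and weighting run on them, and without any single library. Differences of low members grew with a pseudocount of 0.01, to 2.83 for Igf1, 2.47 for Grb10 and 1.56 for Irs1. Irs1 was at least 0.82 in each setting it was fitted in, and with a filter at 5 FPKM it had no value. The sign of Igf1 reversed with the fibroblast (−0.18) and macrophage (−0.34) covariates. That of Igf1r reversed with the smooth muscle (−0.031), fibroblast (−0.36) and macrophage (−0.26) covariates and in HIF2 replicates 6 to 8 (−0.032). Igf2r reversed in the same settings, to 0.067, 0.13, 0.13 and 0.081. Pik3r1 was at −0.004 with HIF2 replicates 0 to 5. Slc2a4 reversed with the smooth muscle (−0.077), fibroblast (−0.52) and macrophage (−0.49) covariates. The cause was not tested.

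Over all genes, 1531 higher became 640 and 1557 lower became 1256 with a filter at 5 FPKM. With no filter 2407 were higher. With the smooth muscle covariate 950 were higher and 1024 lower, with the fibroblast covariate 780 and 753, and with the macrophage covariate 23 and 25. Pathway genes higher numbered 3 with the filter at 5 FPKM, 8 with the Y-linked covariate and 0 with the macrophage covariate, and those lower 19 with array weights and 0 with the macrophage covariate. FOXO-activated genes higher numbered 4 with array weights, 4 with HIF2 replicates 0 to 5, and 0 with no filter, TPM scaling, HIF2 replicates 6 to 8 and each of the smooth muscle, fibroblast and macrophage covariates. Those lower numbered 5 with HIF2 replicates 6 to 8, 1 with the fibroblast covariate and 0 with the macrophage covariate. Imprinted rows higher numbered 0 with the filter at 5 FPKM, 3 with the smooth muscle covariate, 4 with HIF2 replicates 6 to 8 and 0 with the fibroblast and macrophage covariates, and 1 was lower with HIF2 replicates 6 to 8 and 1 with the fibroblast covariate.

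Leaving out each library in turn gave 1322 to 1648 genes higher and 1337 to 1661 lower, 4 to 8 pathway genes higher (8 without HIF2 replicate 8) and 10 to 13 lower, 0 to 2 FOXO-activated genes higher and 2 to 3 lower, and 7 imprinted rows higher and 0 lower throughout. Same-numbered libraries share only a number: the correlation of their deviations was −0.033 to 0.112, over 0.1 in 1 of 9 pairs, and 0 libraries correlated best with their own number. With a replicate block 1355 genes were higher and 1345 lower, with 6 pathway genes higher and 10 lower, and Rps6kb2, Eif4ebp1 and Foxo3 had limma adjusted p of 0.0647, 0.0668 and 0.055. Precision is limited by 9 libraries per group, by the unknown depth and by members near 1 FPKM.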
